A study of Homo sapiens with 27 samples.

Results

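Laminin receptors are the cell surface proteins through which cells bind the laminins of basement membranes. The 8 receptor genes described here are the integrin alpha subunits ITGA3, ITGA6 and ITGA7, the integrin beta subunits ITGB1 and ITGB4, the non-integrin receptors DAG1 and BCAM, and the tetraspanin CD151. They were found by matching these symbols to the Ensembl identifiers of the 44852 genes in the count and TPM tables, and 8 of 8 were present. The series holds bulk RNA-seq of H1, an established line of human embryonic stem cells, grown on 3 matrices named LN523, LN323 and LN521 and sampled on days 2, 22 and 32, with 3 libraries in each of 9 groups and 27 libraries in all. The library titles number these days 0, 20 and 30. Day 2 cells were in stem cell medium, and the cells of days 22 and 32 on every matrix had passed through neural induction with SB431542 and CKI-7 and a photoreceptor medium with BDNF, CNTF, retinoic acid and DAPT. The study's methods describe the LN523 and LN323 matrices as mixtures with LN521 and the LN521 matrix as used alone, whereas the labels pair LN523 and LN521 each with LN323 and list LN323 alone, so each matrix is named here by its leading isoform. Counts assigned to genes ranged from 25620624 to 47340990 per library, and those of the receptor genes from 308, for ITGB4, to 27078, for ITGB1. No source states that the 3 libraries of a group came from separate cultures, and p-values therefore measure the spread between these libraries, which may be technical.

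A laminin is a trimer of 1 alpha, 1 beta and 1 gamma chain, and LN523 joins the products of LAMA5, LAMB2 and LAMC3. ITGA3, ITGA6 and ITGA7 each pair with ITGB1, and ITGA6 also pairs with ITGB4 in hemidesmosomes, the junctions that anchor epithelia through keratin filaments. ITGA6 with ITGB1 is the main receptor by which human pluripotent stem cells hold on to LAMA5-containing laminins. DAG1 encodes dystroglycan, whose sugar chains bind the globular domains of laminin alpha chains, in the retina among other tissues. BCAM, the Lutheran glycoprotein, binds the LAMA5 chain, and CD151 is a tetraspanin that associates laterally with the laminin-binding integrins.

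The receptor genes lie on 7 chromosomes of GRCh38. ITGA3 is at chr17:50055968-50090481, ITGA6 at chr2:172427354-172506459, ITGA7 at chr12:55684568-55716404, ITGB1 at chr10:32887273-33005792, ITGB4 at chr17:75721328-75757818, DAG1 at chr3:49468713-49535618, BCAM at chr19:44809071-44821421 and CD151 at chr11:832887-839831. ITGB1 levels carry an uncertainty, since 16.3% of its transcript was matched by the pseudogene ITGB1P1 at 95% identity or more. Exons of genes on the opposite strand covered 6.60% of the exonic length of CD151, where POLR2L lies, and 5.26% of that of ITGA6, and whether counting used strand is not given in the sources used here, so these reads cannot be told apart. Promoter sequences were printed for ITGA6, the receptor gene that fell, and for BCAM, which stood high in the same libraries as ITGA6 at days 22 and 32. They are the 250 bases before the first listed start site in RefSeq, build GRCh38.p14, plus strand, chr2:172427086-172427335 for ITGA6 and chr19:44808809-44809058 for BCAM, and capitals mark GGGCGG, the GC box, searched on both strands.
ITGA6: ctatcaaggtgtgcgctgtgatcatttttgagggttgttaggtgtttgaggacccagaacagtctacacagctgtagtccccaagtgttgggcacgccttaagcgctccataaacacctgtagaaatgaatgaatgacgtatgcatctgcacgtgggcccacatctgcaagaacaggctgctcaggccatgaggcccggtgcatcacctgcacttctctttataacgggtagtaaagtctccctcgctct
BCAM: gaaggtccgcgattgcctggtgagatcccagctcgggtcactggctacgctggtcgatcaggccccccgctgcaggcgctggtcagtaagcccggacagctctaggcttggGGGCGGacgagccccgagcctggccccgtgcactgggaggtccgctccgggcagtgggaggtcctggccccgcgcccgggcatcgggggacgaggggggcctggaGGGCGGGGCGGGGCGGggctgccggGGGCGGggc
The ITGA6 window held 0 GC boxes and the BCAM window held 5, adjacent ones sharing an end base. The window before the other listed start of ITGA6, chr2:172427336-172427585, held 3, and that before the other start of BCAM held 5, so the ITGA6 count depends on the start site taken. At least 1 GC box was held by 42.6% of 35116 RefSeq promoters of this length.

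Between days 2 and 22, ITGA6 fell on every matrix, to between 0.317 and 0.443 of its day 2 level. ITGB4 rose 5.82-fold to 6.14-fold and CD151 rose 1.84-fold to 1.93-fold. ITGA3 passed the test on LN523, and ITGB1, BCAM, DAG1 and ITGA7 did not pass it on any matrix. With edgeR's quasi-likelihood test, adjusted by Benjamini-Hochberg across every gene tested, 4 of 8 receptor genes were past an adjusted p of 0.05 on LN523, where 21.7% of 44852 genes were called. DESeq2 called 5, 3 and 3 of 8 on LN523, LN323 and LN521. With edgeR on LN323 there were 3 of 8 beside 22.7% of all genes, and on LN521 there were 3 of 8 beside 18.9%. The libraries of days 2 and 22 did not overlap for 5 receptor genes on LN523, 5 on LN323 and 3 on LN521, beside 29.8%, 32.2% and 31.2% of all genes. Of the 44852 genes, 16366 had a mean of at least 1 CPM, whereas each receptor gene had at least 308 reads in every library. Shares among genes of similar level were not computed. The shares of all genes, here and below, are therefore not a matched background, and no excess can be read from a count set beside them. The median log2 fold change over the 8 receptor genes was 0.51, 0.22 and 0.26 on LN523, LN323 and LN521, and that over all genes tested was 0.02, 0.02 and -0.02. Over the genes with a mean of at least 1 CPM, the median was 0.04, 0.01 and 0.12.

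**Figure D1:**
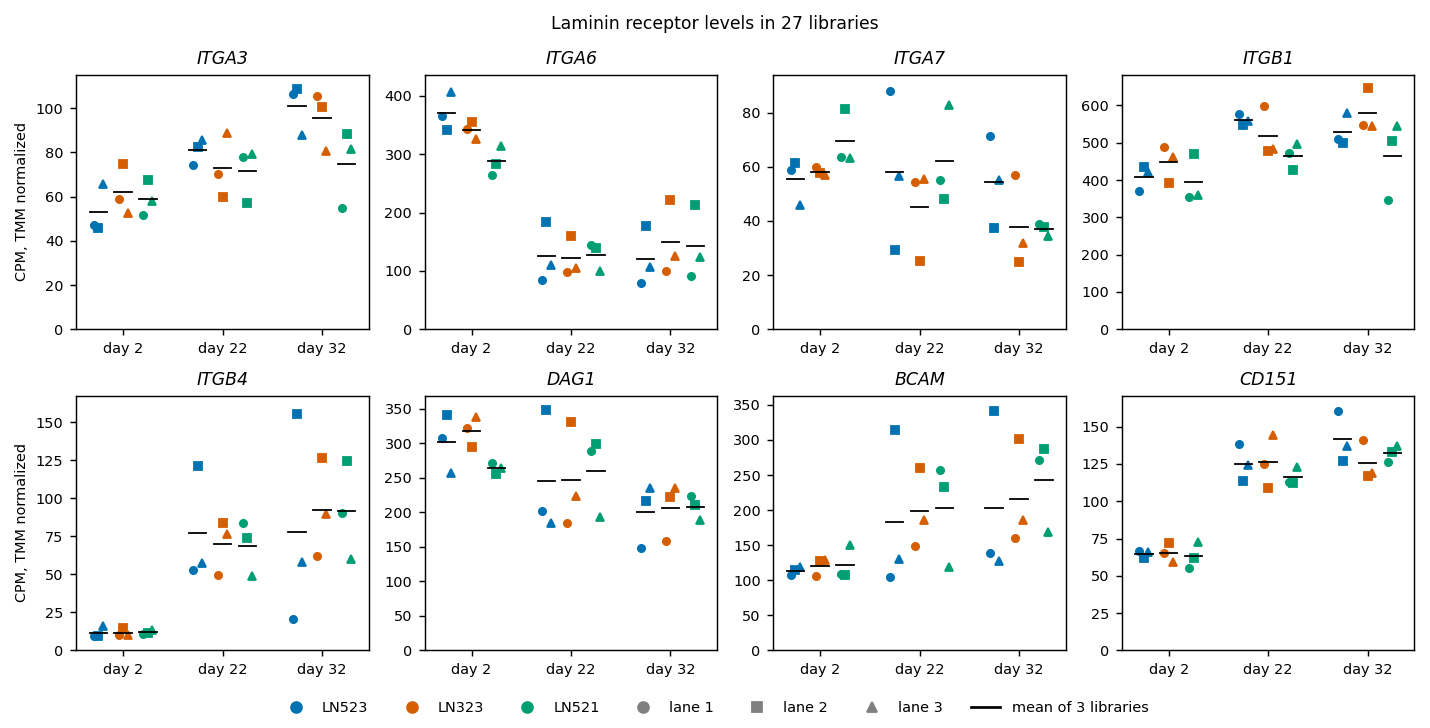
Level of each laminin receptor gene in CPM (counts scaled to TMM-normalized library size, linear axes from 0) by day and matrix. Each point is 1 library, its shape giving the sequencing lane, and bars are means of 3 libraries. ITGA6 lay between 265 and 408 CPM at day 2 and between 83.6 and 184 CPM at day 22.

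ITGA6 was the alpha subunit with the highest TPM in the stem cells and the receptor gene that fell on each matrix in the test. Levels are given in CPM, the counts scaled to TMM-normalized library size. On LN523 it stood at 365, 341 and 408 CPM at day 2, at 83.6, 184 and 109.6 CPM at day 22, and at 79.1, 177 and 107 CPM at day 32. On LN323 the values were 343, 355 and 325 CPM at day 2, 99.0, 159.8 and 105 CPM at day 22, and 99.8, 221 and 126 CPM at day 32. On LN521 they were 265, 283 and 315 CPM at day 2, 145, 139 and 99.0 CPM at day 22, and 90.6, 214 and 124 CPM at day 32. Every day 2 library was above every library of days 22 and 32, and in 9 of 9 pairs of libraries from the same lane the level fell by day 22. The log2 fold change was -1.66 ± 0.23 (SE) on LN523 (adjusted p = 5.82e-08, edgeR), -1.54 ± 0.23 on LN323 (adjusted p = 2.51e-07) and -1.18 ± 0.22 on LN521 (adjusted p = 4.87e-05). Between days 22 and 32 it was -0.05 on LN523, 0.26 on LN323 and 0.08 on LN521, and 0 of these 3 passed the test.

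ITGB4, the hemidesmosomal partner of ITGA6, had the largest change of the 8 genes and the lowest TPM in the stem cells. On LN523 it was at 9.40, 9.48 and 15.7 CPM at day 2, at 53.0, 121 and 57.7 CPM at day 22, and at 20.4, 155 and 57.8 CPM at day 32. On LN323 it was at 10.3, 14.7 and 10.0 CPM at day 2, at 49.5, 83.5 and 76.6 CPM at day 22, and at 62.1, 126 and 89.4 CPM at day 32. On LN521 it was at 10.6, 11.7 and 13.6 CPM at day 2, at 84.1, 73.9 and 48.9 CPM at day 22, and at 90.5, 124 and 60.0 CPM at day 32. All 9 day 22 libraries were above all 9 day 2 libraries, by 1.85 to 3.68 on the log2 scale within a lane, and the day 32 libraries on LN523 were the most dispersed group of any receptor gene, 7.60-fold from lowest to highest. The rise from day 2 to day 22 was 6.14-fold on LN523 (log2 2.62 ± 0.33, adjusted p = 7.39e-09, edgeR), 5.97-fold on LN323 (log2 2.58 ± 0.33, adjusted p = 8.57e-09) and 5.82-fold on LN521 (log2 2.54 ± 0.33, adjusted p = 1.62e-08).

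CD151 rose with little spread between libraries, at most 1.32-fold from lowest to highest in any group of days 22 and 32. Its day 2 levels were 66.9, 61.9 and 65.9 CPM on LN523, 65.3, 71.9 and 59.1 CPM on LN323, and 54.9, 62.0 and 72.5 CPM on LN521. At day 22 they were 138, 114 and 124 CPM on LN523, 125, 109 and 145 CPM on LN323, and 113, 112 and 123 CPM on LN521. At day 32 they were 161, 127 and 137 CPM, 141, 117 and 119 CPM, and 126, 133 and 137 CPM on the same matrices. No library of days 22 or 32 came near the day 2 range, and the 3 matrices overlapped at each day. The rise to day 22 was 1.93-fold on LN523 (log2 0.95 ± 0.19, adjusted p = 7.23e-05, edgeR), 1.92-fold on LN323 (log2 0.94 ± 0.19, adjusted p = 7.41e-05) and 1.84-fold on LN521 (log2 0.88 ± 0.19, adjusted p = 0.000261).

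ITGA3, an alpha subunit best known from epithelial basement membranes, rose less. On LN523 it was at 46.9, 45.8 and 65.8 CPM at day 2 and at 74.3, 82.6 and 85.7 CPM at day 22, without overlap, and the log2 fold change of 0.62 ± 0.22 was past the threshold (adjusted p = 0.0309, edgeR). The call was lost without day 2 replicate 1 (log2 0.55, adjusted p = 0.134) and without day 2 replicate 2 (log2 0.50, adjusted p = 0.184). On LN323 and LN521 the log2 fold changes were 0.23 ± 0.21 and 0.28 ± 0.21, and the libraries of both days overlapped. Over all matrices, ITGA3 had a median of 58.1 CPM (45.8 to 74.7, 9 libraries) at day 2, 78.0 CPM (57.3 to 88.8) at day 22 and 88.4 CPM (54.8 to 109) at day 32.

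ITGB1, the shared beta subunit, and BCAM were higher at day 22 without passing the test on any 1 matrix. ITGB1 had a median of 422 CPM (354 to 488, 9 libraries) at day 2 and 495 CPM (427 to 598) at day 22, and its log2 fold changes were 0.46 ± 0.18, 0.22 ± 0.18 and 0.24 ± 0.18 on LN523, LN323 and LN521, with an adjusted p of 0.0566 on LN523 (edgeR). BCAM had a median of 114 CPM (106 to 150.3) at day 2 and 186 CPM (105 to 314) at day 22, and its log2 fold changes were 0.57 ± 0.26, 0.67 ± 0.26 and 0.68 ± 0.26, with adjusted p-values of 0.128, 0.0529 and 0.0589 (edgeR). The day 22 range of BCAM was the wider and reached down into its day 2 range. Refits that left out 1 library changed these calls, and each refit also redid the normalization and the estimate of spread. ITGB1 on LN523 was called without any 1 of the 3 day 22 libraries (log2 0.55 to 0.62) and by DESeq2 (log2 0.43, adjusted p = 0.0299). BCAM was called on LN523 without day 22 replicate 1 or 3 (log2 0.94 and 0.81), on LN323 without day 2 replicate 3 or day 22 replicate 1 or 2 (log2 0.85, 0.91 and 0.76), and on LN521 without day 2 replicate 3 or day 22 replicate 2 or 3 (log2 1.00, 0.83 and 1.00). In a contrast of the mean change over the 3 matrices, added after the data were seen, 6 of 8 receptor genes were past the threshold beside 35.1% of all genes. Those were ITGA6, ITGB4 and CD151, together with BCAM (log2 0.64 ± 0.15, adjusted p = 0.000409), ITGA3 (log2 0.38 ± 0.12, adjusted p = 0.0128) and ITGB1 (log2 0.30 ± 0.10, adjusted p = 0.015).

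DAG1 and ITGA7 were not past the threshold in either form of the test. DAG1 had a median of 295 CPM (256 to 341) at day 2, 224 CPM (184 to 348) at day 22 and 216 CPM (148 to 235) at day 32, and its mean log2 change from day 2 to day 22 was -0.25 ± 0.12 (adjusted p = 0.0966, edgeR). ITGA7, the alpha subunit known from skeletal muscle, had a median of 60.1 CPM (45.9 to 81.5) at day 2, 55.1 CPM (25.3 to 88.2) at day 22 and 37.7 CPM (25.0 to 71.3) at day 32. With lane 2 left out of every group, DAG1 was called on LN323 (log2 -0.69, adjusted p = 0.0178). The mean log2 change of ITGA7 from day 2 to day 22 was -0.22 with a 95% interval from -0.52 to 0.08. For both genes the day 22 range enclosed the day 2 range.

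**Figure D2:**
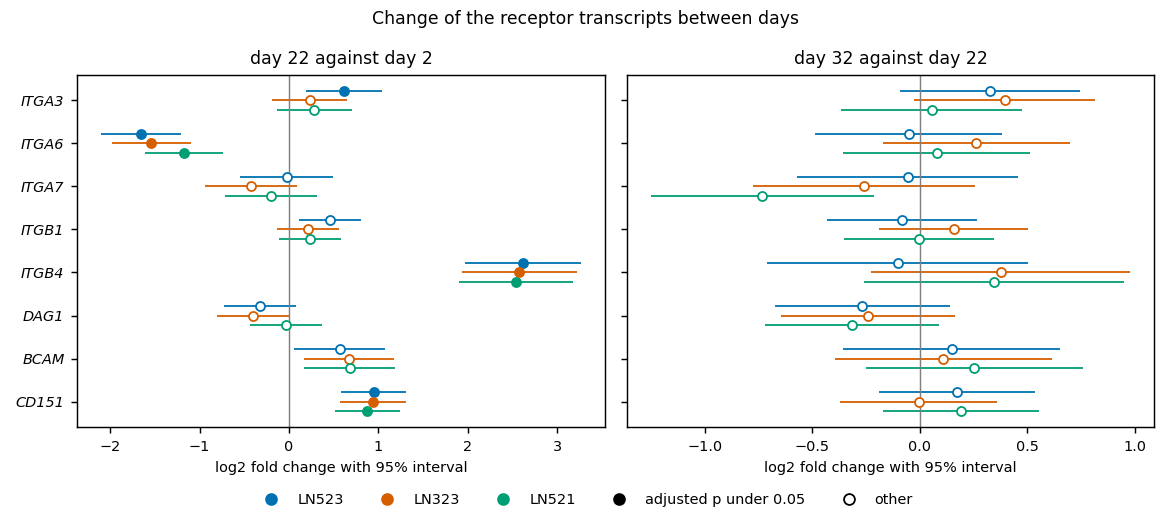
Log2 fold change of each receptor gene between days, by matrix, with 95% intervals. Filled points are past an adjusted p of 0.05 in edgeR's quasi-likelihood test. Between days 2 and 22, ITGA6 lies between -1.66 and -1.18 and ITGB4 between 2.54 and 2.62, while between days 22 and 32 every point is open.

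Between days 22 and 32, 0 of 8 receptor genes were called by edgeR on any matrix, beside 0.381% of all genes on LN523, 0.0424% on LN323 and 0.268% on LN521. At an unadjusted p under 0.05 there were 0 of 8 on LN523 and LN323 and 1 of 8 on LN521, ITGA7, beside 4.38%, 2.85% and 6.16% of all genes, and DESeq2 also called 0 of 8 on each matrix. ITGA7 on LN521 was at 55.1, 48.2 and 83.0 CPM at day 22 and at 38.9, 37.7 and 34.5 CPM at day 32, without overlap. Its log2 fold change was -0.73 ± 0.26 (adjusted p = 0.422, edgeR), and it was called when lane 2 was left out of every group (log2 -0.94, adjusted p = 0.0314). The other estimates ran up to 0.39, the value of ITGA3 on LN323. Libraries of both days did not overlap for 1 receptor gene on LN523, ITGA3, for 2 on LN521, ITGA7 and CD151, and for 0 on LN323, beside 5.93%, 7.83% and 5.04% of all genes. The 24 intervals lay between -1.25 and 0.98 on the log2 scale. Averaged over the matrices, a contrast added after the data were seen, edgeR called 0 of 8 beside 1.33% of all genes. At an unadjusted p under 0.05 there were 3 of 8, ITGA3, ITGA7 and DAG1. The share of all genes at that unadjusted p was not computed for this contrast, so no excess can be read from this count.

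Matrices were compared within each day, the question being whether cells on different laminins carry different amounts of laminin receptor transcripts. In the 9 comparisons, edgeR called 0 of 8 receptor genes. All genes called amounted to 0.233% for LN523 against LN323, 0.624% for LN523 against LN521 and 2.5% for LN323 against LN521 at day 2, to 0.013%, 0.572% and 0.616% at day 22, and to 0%, 0.0609% and 0.117% at day 32. At an unadjusted p under 0.05, 1 of 8 was counted in each of 3 comparisons and 0 in the other 6, and DESeq2 called 0 of 8 in all 9. In the same order of comparisons, all genes at that unadjusted p amounted to 2.38%, 8.07% and 11.4% at day 2, 1.33%, 4.56% and 5.08% at day 22, and 1.9%, 5.17% and 4.47% at day 32. The gene counted was ITGA7 each time. It had a log2 difference of -0.42 ± 0.20 for LN523 against LN521 at day 2 (adjusted p = 0.545), -0.55 ± 0.19 for LN323 against LN521 at day 22 (adjusted p = 0.29) and 0.54 ± 0.23 for LN523 against LN323 at day 32 (adjusted p = 1, all edgeR). For LN523 against LN323 at day 32 the call depended on the libraries in the fit. With only the 6 libraries of those groups, edgeR called ITGA7 (log2 0.55 ± 0.13, adjusted p = 0.000856), ITGB4 (log2 -0.64 ± 0.12, adjusted p = 4.49e-06) and 1035 genes in all, against 0 with the LN521 libraries included.

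The order of the matrices for ITGA7 was not the same at each day. At day 2 its levels were 58.9, 61.4 and 45.9 CPM on LN523, 60.1, 57.6 and 56.8 CPM on LN323, and 63.8, 81.5 and 63.4 CPM on LN521. At day 22 they were 88.2, 29.2 and 56.8 CPM on LN523, 54.4, 25.3 and 55.4 CPM on LN323, and 55.1, 48.2 and 83.0 CPM on LN521. At day 32 they were 71.3, 37.3 and 55.1 CPM on LN523, 56.8, 25.0 and 31.8 CPM on LN323, and 38.9, 37.7 and 34.5 CPM on LN521. LN521 libraries were above all others at day 2, whereas at days 22 and 32 the ranges of the matrices overlapped. Without LN521 replicate 1, the day 22 difference of LN323 from LN521 was called (log2 -0.85, adjusted p = 0.000474).

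The 72 within-day differences between matrices ranged from -0.59 to 0.54, and their 95% intervals reached from -1.20 to 0.99 on the log2 scale. At day 2, libraries of LN523 and LN521 did not overlap for 2 receptor genes and those of LN323 and LN521 for 3, beside 12.6% and 16% of all genes. ITGA6 was among both, higher on LN523 by 0.28 ± 0.17 and on LN323 by 0.15 ± 0.17. At day 22 only ITGB1 did not overlap, between LN523 and LN521, beside 6.66% of all genes, and at day 32 only ITGB1, between LN323 and LN521, beside 6.35%. The other 5 comparisons had 0 receptor genes without overlap, beside 5.72% of all genes for LN523 against LN323 at day 2, 3.46% and 6.98% for LN523 and LN521 against LN323 at day 22, and 4.63% and 6.38% for LN323 and LN521 against LN523 at day 32. The largest estimates at day 32 were those of ITGB4, -0.54 ± 0.30 for LN523 against LN323 and -0.59 ± 0.31 for LN523 against LN521. Without LN521 replicate 1, the difference in ITGB4 between LN323 and LN521 at day 32 turned from -0.05 to 0.58 and was called (adjusted p = 0.00392). Averaged over the 3 days, again a contrast added after the data were seen, 0 of 8 receptor genes were called for LN523 against LN323, where 0% of all genes were called, for LN523 against LN521 (0.0223%) and for LN323 against LN521 (0.196%), where 1 of 8, ITGB1, had an unadjusted p under 0.05 (log2 0.22 ± 0.10). The share of all genes at that unadjusted p was not computed for the averaged contrasts. The 24 averaged differences ranged from -0.28 to 0.27 with intervals between -0.57 and 0.57. The test of matrix by day interaction called 0 of 8 receptor genes and 0.0602% of all genes, with 0 of 8 and 5.09% at an unadjusted p under 0.05. DESeq2 called 0 of 8 as well. The lowest unadjusted interaction p among the receptor genes in edgeR was 0.167, for ITGA7.

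**Figure D3:**
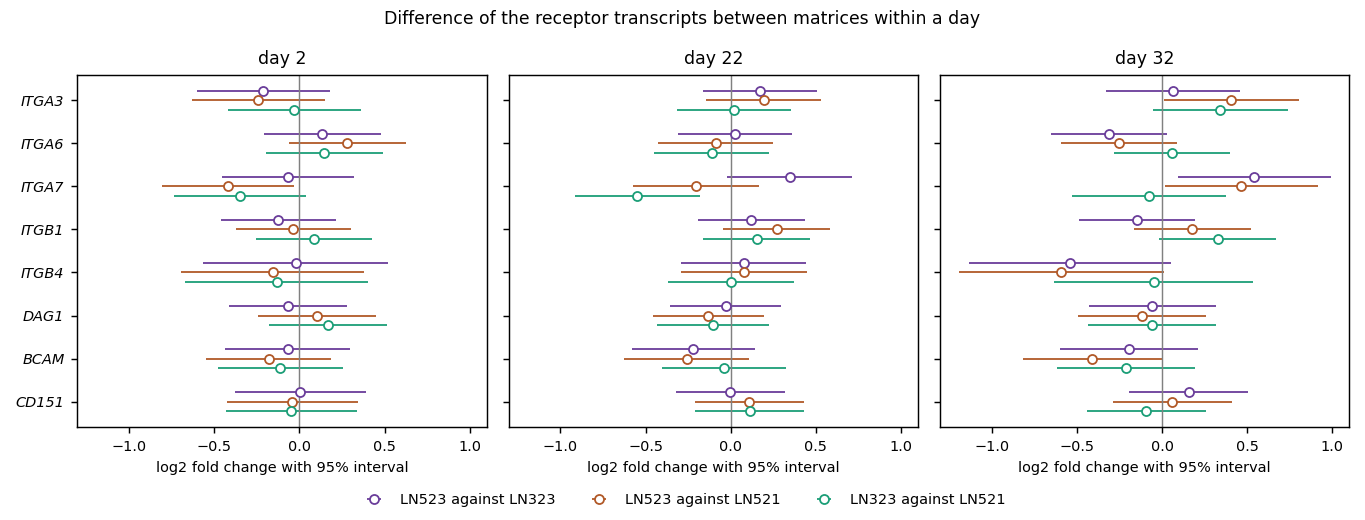
Log2 fold change of each receptor gene between matrices within days 2, 22 and 32, with 95% intervals. All 72 points are open because none was past an adjusted p of 0.05 in edgeR's test, and the estimates lie between -0.59 and 0.54.

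Levels of different genes were compared per length, in TPM as deposited. Between days 2 and 22 the median TPM of expressed genes shifted by 0.31, 0.31 and 0.13 on the log2 scale on LN523, LN323 and LN521, beside 0.04, 0.01 and 0.12 in the edgeR fit, so TPM is used here for the order of genes within a day and for ratios of genes within a library. ITGB1 had the highest TPM of the 8 genes at every day, with a median over 9 libraries of 236 TPM at day 2 (203 to 319), 338 TPM at day 22 and 351 TPM at day 32. At day 2 it was followed by ITGA6 (177 TPM, 153 to 216) and DAG1 (148 TPM, 128 to 178), then BCAM (81.8 TPM), CD151 (58.0 TPM), ITGA7 (30.5 TPM), ITGA3 (21.4 TPM) and ITGB4 (7.09 TPM). Of these neighbours, DAG1 and BCAM, BCAM and CD151, and ITGA3 and ITGB4 did not overlap, and the others did. At day 22 the order was ITGB1, BCAM (144 TPM), CD151 (126 TPM), DAG1 (126 TPM), ITGA6 (67.1 TPM), ITGB4 (43.6 TPM), ITGA7 (35.3 TPM) and ITGA3 (33.2 TPM). ITGA6 thus moved from rank 2 to rank 5 while BCAM and CD151 took the places behind ITGB1. At day 22 ITGB1 stood clear of BCAM, while every other pair of neighbours in this order overlapped.

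The proportions of the integrin subunit transcripts shifted with day. ITGA6 made up a median of 77.3% of the summed TPM of the 3 alpha subunits at day 2 (68.8% to 81.8%, 9 libraries), 49.1% at day 22 (37.4% to 70.8%) and 58.1% at day 32 (35.5% to 70.5%). The share of ITGA3 went from a median of 8.84% to 22.2% and 25.3%, and that of ITGA7 from 13.9% to 25.6% and 16.5%. The ratio of ITGB4 to ITGA6 had a median of 0.0373 at day 2 (0.0249 to 0.0417), 0.516 at day 22 (0.477 to 0.702) and 0.562 at day 32 (0.250 to 0.965). ITGB1 TPM per summed alpha TPM had a median of 1.06 at day 2 (0.879 to 1.24), 2.30 at day 22 (2.03 to 3.22) and 2.49 at day 32 (1.76 to 2.83). In both ratios the day 2 libraries lay apart from all later ones, whereas the ITGA6 shares of day 2 overlapped those of days 22 and 32. These are ratios of transcripts and not of receptor dimers at the cell surface.

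**Figure D4:**
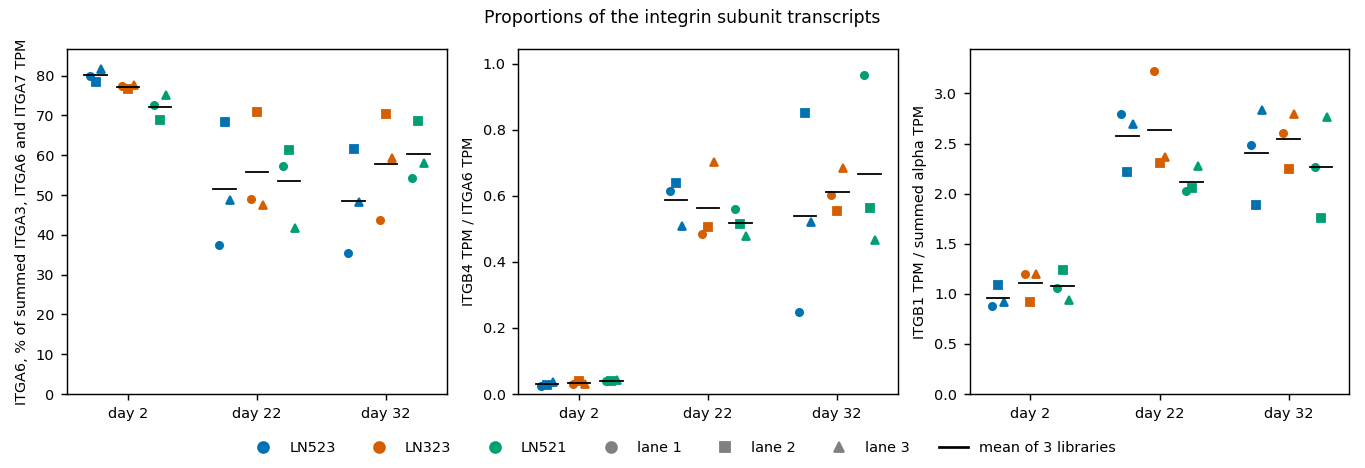
Proportions of integrin subunit transcripts in TPM by day and matrix, with linear axes from 0, 1 point per library and bars at the mean of 3 libraries. The ratio of ITGB4 to ITGA6 is at most 0.0417 at day 2 and at least 0.250 at day 32, and the share of ITGA6 among alpha subunits is at least 68.8% at day 2.

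The cells themselves changed between these days. Summed levels of 9 pluripotency markers had a median of 13487 CPM at day 2 (8957 to 15078) and 129 CPM at day 22, and those of 6 retinal progenitor markers 4.16 CPM and 1530 CPM. LN521 replicate 1 stood apart at day 22, with pluripotency markers at 650.2 CPM and 9 of 9 at 1 CPM or more, while the other 8 libraries had 99.4 to 251 CPM and 4 to 6 of 9. In bulk libraries, fewer cells of a type and less RNA per cell cannot be told apart. Markers of other cell types also moved with day, and their part in the receptor changes was not tested.

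The summed level of 8 mesenchymal markers ranged from 306 to 623 CPM at day 2, from 1916 to 5632 CPM at day 22 and from 2419 to 16898 CPM at day 32, with 4 of 8 markers at 1 CPM or more in the day 2 libraries and 7 to 8 of 8 later. For 9 pigment epithelium markers the sum was 154 to 278 CPM at day 2, 1040 to 2603 CPM at day 22 and 771 to 2528 CPM at day 32, with PMEL, a melanosome protein, at a median of 966 CPM at day 22 and RPE65, the visual cycle isomerase, at most 0.428 CPM there. The 14 epidermal keratinocyte markers summed to 54.0 to 91.1 CPM at day 2 (5 to 6 of 14 at 1 CPM or more), 305 to 525 CPM at day 22 (9 to 11 of 14) and 212 to 1184 CPM at day 32 (7 to 13 of 14). The basal keratins KRT14 and KRT5 were at most 0.841 and 8.27 CPM in any library, whereas KRT17 reached 385 CPM (median 185 CPM at day 32), KRT15 reached 144 CPM, and TP63, the transcription factor of stratified epithelia, had a median of 0.0963 CPM at day 2 and 25.4 CPM at day 22. In all 3 of these lists the day 22 sums lay above the day 2 sums without overlap.

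Other lists had lower or wider sums at day 22. Sums of 7 Schwann and neural crest markers were 709 to 1433 CPM at day 2, 295 to 507 CPM at day 22 and 265 to 493 CPM at day 32. Those of 8 endothelial markers were 265 to 472 CPM at day 2, 23.9 to 74.1 CPM at day 22 and 33.0 to 61.9 CPM at day 32. KDR, a receptor for VEGF, was at 137 to 328 CPM at day 2, and PECAM1 was at most 0.790 CPM at days 2 and 22 and at 0.761 to 7.15 CPM at day 32. For 8 skeletal muscle markers, the list nearest to the best known site of ITGA7, the sum was 112 to 224 CPM at day 2, 28.6 to 606 CPM at day 22 and 39.1 to 137 CPM at day 32, with 3 to 6 of 8 at 1 CPM or more. MYOD1, the muscle regulator, was at most 0.256 CPM in any library, while the cardiac and fetal actin ACTC1 reached 588 CPM at day 22, TNNT1 was at 85.4 to 191 CPM at day 2 and DES reached 77.7 CPM at day 32. The 9 photoreceptor lineage markers summed to 78.1 to 183 CPM at day 2, 70.9 to 143 CPM at day 22 and 125 to 389.9 CPM at day 32. At day 2, OTX2 alone was at 69.2 to 170 CPM, and CRX was at most 0.463 CPM. Medians at days 22 and 32 were 4.87 and 9.47 CPM for CRX, 0.579 and 10.6 CPM for RBP3, and 1.42 and 14.6 CPM for NEUROD1. RXRG went the other way, with medians of 27.0 and 17.8 CPM. RCVRN reached at most 4.48 CPM, at day 32.

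Within the groups of days 22 and 32, the receptor genes differed between libraries in a recurring way. Each replicate number stood for 1 sequencing lane, so lane cannot be told apart from anything else that the replicates of a number shared. Lane 2 held the highest library of the group in 5 of 6 groups for ITGA6, ITGB4 and BCAM, and in each case the exception was LN521 at day 22. Lane 2 held the lowest library in 5 of 6 groups for ITGA7 and CD151, the exception being LN521 at day 32. On LN523 at day 32, BCAM was at 139, 341 and 128 CPM in lanes 1, 2 and 3, beside the ITGB4 values of 20.4, 155 and 57.8 CPM given above. At day 2 this was not seen, lane 2 being the highest in 1 of 3 groups for ITGA6 and for ITGB4 and in 0 of 3 for BCAM.

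The same libraries stood out in marker levels. Lane 2 had the highest summed level of keratinocyte markers in 5 of 6 groups, of mesenchymal markers in 4 of 6 and of Schwann and neural crest markers in 5 of 6. It had the lowest summed level of retinal progenitor markers in 5 of 6 groups and of photoreceptor lineage markers in 5 of 6. On LN523 at day 32, keratinocyte markers summed to 212, 1023 and 336 CPM in lanes 1, 2 and 3, the order in which ITGB4 stood. The part of these cells in the receptor levels was not tested. With lane 2 left out of every group, ITGA6, ITGB4 and CD151 were still called between days 2 and 22 on each matrix, and ITGA3 on LN523 was not (log2 0.51, adjusted p = 0.176).

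**Figure D5:**
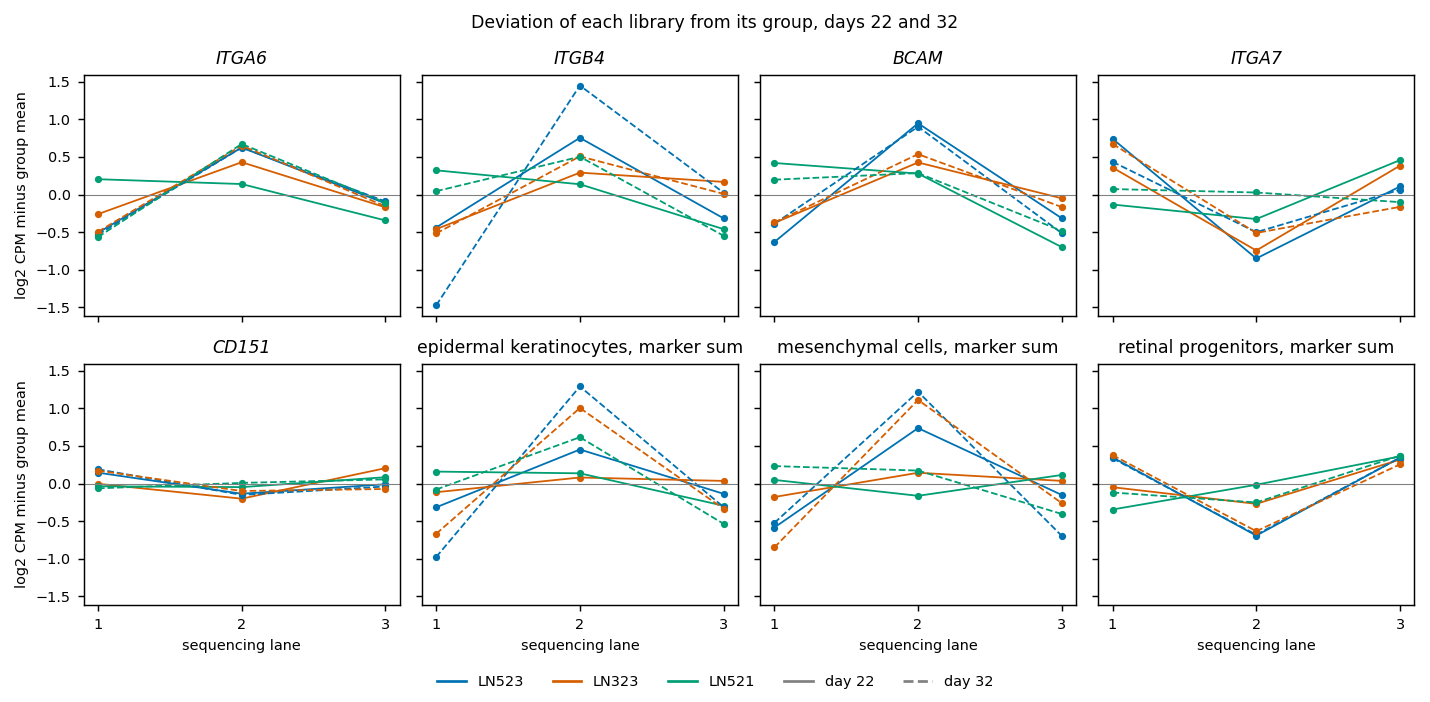
Log2 CPM minus the mean of the group for each library of days 22 and 32, by sequencing lane, for 5 receptor genes and for the summed markers of 3 cell types. Each line joins the 3 libraries of 1 group. Lane 2 is the peak of 5 of 6 lines for ITGA6, ITGB4, BCAM and keratinocyte markers and the trough of 5 of 6 for ITGA7, CD151 and retinal progenitor markers.

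Laminin chains, the ligands, also changed between these days. Of 12 chains, 7 rose and 2 fell between days 2 and 22 on LN523, 6 rose and 1 fell on LN323, and 6 rose and 2 fell on LN521. Of all genes, 11.5%, 11.8% and 10.8% rose and 10.2%, 10.9% and 8.09% fell on LN523, LN323 and LN521. The median log2 fold change over the chains was 0.67, 0.52 and 0.46 on these matrices, beside 0.02, 0.02 and -0.02 over all genes. Over genes with a mean of at least 1 CPM, the median was 0.04, 0.01 and 0.12. LAMB1 rose from 82.0 to 415 CPM on LN523 (log2 2.26 ± 0.28, adjusted p = 3.67e-09, edgeR), and LAMA4 from 2.87 to 14.1 CPM (log2 1.95 ± 0.46, adjusted p = 0.000849). LAMC3, the gamma chain of the LN523 and LN323 matrices, fell from 35.2 to 4.90 CPM (log2 -2.86 ± 0.36, adjusted p = 7.73e-09). The same 3 chains were called in the same direction on LN323 and LN521. LAMB4 rose to 2.71, 2.89 and 2.14 CPM on LN523, LN323 and LN521, and it had 0 reads in every day 2 library on LN323 and LN521. The log2 fold changes of LAMB1 were 2.31 and 2.44 on LN323 and LN521, and those of LAMC3 were -3.06 and -2.29.

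Between days 22 and 32, when no receptor gene was called, a few chains were. LAMB3 rose on all 3 matrices, with days overlapping on LN523 and LN323 and not on LN521, from 13.1 to 59.8 CPM on LN523 (adjusted p = 0.0233), from 12.2 to 65.4 CPM on LN323 (adjusted p = 0.0206) and from 7.30 to 79.2 CPM on LN521 (adjusted p = 6.51e-05, all edgeR). On LN521, LAMA3, which like LAMB3 encodes a chain of epidermal laminin, rose from 4.47 to 17.9 CPM. LAMA1, a chain of early embryonic basement membranes, fell from 229.8 to 106 CPM on LN523 (log2 -1.11 ± 0.22) and from 233 to 106 CPM on LN521 (log2 -1.13 ± 0.22). Summed keratinocyte markers ranged from 305 to 525 CPM at day 22 and from 212 to 1184 CPM at day 32, and their part in the rise of these chains was not tested.

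Of 7 hemidesmosome genes, 3 rose between days 2 and 22 on LN523 and LN323, 2 rose on LN521, and 0 fell, beside 11.5%, 11.8% and 10.8% of all genes higher and 10.2%, 10.9% and 8.09% lower. Their median log2 fold change was 0.89, 0.62 and 1.05. COL17A1, the transmembrane collagen of hemidesmosomes and 1 of the keratinocyte markers, rose from 3.40 to 104 CPM on LN523 (log2 4.89 ± 0.41, adjusted p = 4.44e-14, edgeR), with log2 fold changes of 4.34 and 5.46 on LN323 and LN521. KRT8, a keratin of simple epithelia, rose from 401 to 755 CPM on LN523 (log2 0.89 ± 0.20), by 0.62 on LN323 and by 1.05 on LN521. PLEC and DST, which encode the linkers between ITGB4 and keratin, were not past the threshold on any matrix, with log2 fold changes of 0.28 and 0.23 on LN523. The third gene that rose on LN523 and LN323 was the basal keratin KRT5, at a mean of 0.595 and 0.329 CPM at day 22.

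Integrins signal through cytoplasmic partners, of which 18 were examined. Between days 2 and 22, 7 rose and 4 fell on LN523, 5 rose and 4 fell on LN323, and 6 rose and 3 fell on LN521, and all genes called in either direction were 21.7%, 22.7% and 18.9%. The median log2 fold change over the partners was 0.27, 0.23 and 0.39. PARVA, an actin-binding partner of integrin-linked kinase, rose from 16.0 to 71.2 CPM on LN523 (log2 2.14 ± 0.23, adjusted p = 1.53e-10, edgeR) and by 2.17 and 2.40 on LN323 and LN521. The tensin genes TNS1 and TNS3 rose on LN523 by 1.75 ± 0.43 and 1.37 ± 0.21, and ZYX, which encodes the zyxin of mature adhesions, fell by 1.01 ± 0.26 on the log2 scale. TNS3 was the partner that differed between matrices at day 22, at 271 and 267 CPM on LN523 and LN323 and at 161 CPM on LN521, with log2 differences from LN521 of 0.71 ± 0.16 (adjusted p = 0.0115) and 0.69 ± 0.16 (adjusted p = 0.0123, edgeR). At day 2, BCAR1, a docking protein of focal adhesions, was higher on LN323 than on LN521, at 186 against 109 CPM (log2 0.66 ± 0.19, adjusted p = 0.022).

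DAG1 acts within a complex and needs sugar-transferring enzymes to bind laminin. Of 14 genes of the dystrophin glycoprotein complex, 9 rose and 1 fell between days 2 and 22 on LN523, 8 rose and 1 fell on LN323, and 6 rose and 1 fell on LN521, with a median log2 fold change of 0.80, 0.82 and 0.80. All genes that rose were 11.5%, 11.8% and 10.8%, and those that fell 10.2%, 10.9% and 8.09%. SSPN, a membrane partner of the sarcoglycans, rose from 0.466 to 8.57 CPM on LN523 (log2 4.28 ± 0.57, adjusted p = 3.16e-08, edgeR), while SNTB1, a syntrophin, fell from 29.5 to 1.99 CPM (log2 -3.91 ± 0.40, adjusted p = 2.52e-11). The sarcoglycan SGCD rose to 3.51 CPM from below 1 CPM. Of 14 enzymes for dystroglycan glycosylation, 6 rose on each matrix, and 2 fell on LN523 and LN323 and 1 on LN521, beside the same shares of all genes, with a median of 0.34, 0.22 and 0.33. LARGE2, which extends the laminin-binding sugar, fell from 93.3 to 13.2 CPM on LN523 (log2 -3.27 ± 0.44, adjusted p = 3.2e-08), and B4GAT1, which acts earlier in the same sugar chain, rose by 1.41 ± 0.25 on the log2 scale. Of 7 other ligands of dystroglycan, 2 rose and 3 fell on LN523, 2 rose and 1 fell on LN323, and 1 rose and 2 fell on LN521. These counts stand beside the same shares of all genes, 11.5%, 11.8% and 10.8% that rose and 10.2%, 10.9% and 8.09% that fell. SLIT2 rose from 5.67 to 79.9 CPM and HSPG2 from 133 to 326 CPM on LN523, and NRXN2 fell from 25.6 to 9.40 CPM. At day 22, EGFLAM, the pikachurin of photoreceptor ribbon synapses, was at 0.157 CPM on LN523 and 1.23 CPM on LN521 (log2 -3.26 ± 0.86, adjusted p = 0.0488, edgeR). Both levels are low, and the adjusted p lies just under the threshold of 0.05.

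Among 13 other tetraspanins, 6 rose and 1 fell between days 2 and 22 on LN523, 5 rose and 2 fell on LN323, and 6 rose and 1 fell on LN521. Beside these, 11.5%, 11.8% and 10.8% of all genes rose and 10.2%, 10.9% and 8.09% fell, and the median log2 fold change of the tetraspanins was 0.58, 0.74 and 0.82. TSPAN3 rose from 148 to 411 CPM on LN523 (log2 1.47 ± 0.18, adjusted p = 3.4e-09, edgeR) and by 1.67 and 1.71 on LN323 and LN521. CD9, which like CD151 associates with integrins, fell from 110.1 to 39.6 CPM on LN523 (log2 -1.54 ± 0.35, adjusted p = 0.000433) with log2 fold changes of -2.14 and -1.43 on LN323 and LN521. CD151 and CD9 thus changed in opposite directions on every matrix.

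The genes whose log2 CPM followed a receptor gene most closely over the 27 libraries were found by Pearson correlation among 16366 genes with a mean of at least 1 CPM. These libraries share the difference between days, so the values describe likeness of profile only. CD151 was most like ZFAND3 (r = 0.983), WDR13 (0.980) and APBB1 (0.980), and ITGB4 most like HCAR2 (0.981), H19 (0.977) and WNT6 (0.973). ITGA6 was most like CARMIL1 (0.963), EPB41L4B (0.959) and ARHGEF19 (0.957), and BCAM most like TNS1 (0.939), CRISPLD2 (0.918) and SVEP1 (0.916). The closest profiles to the other receptor genes were looser, with ARNT (0.907) for ITGA3, L3MBTL3 (0.888) for ITGB1 and FRMD5 (0.834) for ITGA7. For DAG1 the closest named gene was BRI3BP (0.905). None of the 8 receptor genes was among the 3 closest profiles of another.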

How the data were processed

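Per the labels and the study's methods, the authors made stranded total RNA libraries depleted of ribosomal RNA, sequenced them as pairs of 150 bp, trimmed them with cutadapt, aligned them to GRCh38 with STAR 2.5.2b and assigned them to genes of Ensembl 79 with featureCounts. The deposited counts are whole reads per gene, not normalized, and the deposited TPM values are the authors' abundances scaled by gene length. Ribosomal and mitochondrial genes had been removed by the authors. Symbols came from GENCODE 44, which named 43052 of 44852 genes. Receptor genes and gene lists were chosen with earlier results of these data known. Genes with a count sum above 1 were tested with edgeR 4.0.16 (quasi-likelihood, TMM) in R 4.3.3, with the lane, which equals the replicate number and is the study's covariate, as a block. Matrices were compared within each day over 9 libraries, and days over all 27 libraries, with Benjamini-Hochberg adjustment at 0.05. Pathway genes named are at most 4 per list and comparison, those largest in change among genes called, at 1 CPM or more in a group and of 1 sign in all 3 lanes, and the 3 genes most correlated with each receptor gene are named. Some genes of these lists are not reported here by name. KRT5, PLEC and DST fall outside this rule and were chosen after their values were seen, as were the cell type markers given singly. Alternatives used DESeq2 1.42.0 and limma 3.58.1. Same-lane deviations at days 2, 22 and 32 correlated on average by -0.29, 0.56 and 0.64 between LN523 and LN323, by 0.14, 0.16 and 0.15 between LN523 and LN521, and by -0.076, 0.11 and -0.0031 between LN323 and LN521, with lane 1 below 0 in both pairs with LN521 at days 22 and 32. The fit was tested on simulated data. With 100 genes changed by 2 on the log2 scale between days 2 and 22 on LN523, 84% of them were recovered among 43136 genes, and with 100 changed by 1, 15%. For LN523 against LN323 at day 32, 81% were recovered at a change of 2 and 22% at a change of 1, among 36882 genes. Most of the 100 genes changed by 1 were thus missed in both settings. Recovery at the read counts and spread of the receptor genes was not tested.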

Additional observations from a re-analysis of the deposited data

Results flagged for a closer look

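Between days 22 and 32, the estimates for ITGA6 had opposite signs on 2 matrices. On LN523 its log2 fold change was -0.053, and each of the 3 lanes had a lower level at day 32. On LN323 its log2 fold change was 0.26, and each of the 3 lanes had a higher level. The libraries of both days overlapped on each matrix, and neither change was past the threshold. The test of matrix by day interaction over all 9 groups gave a p of 0.294 and an adjusted p of 1 for ITGA6 in edgeR, and the difference between these 2 changes alone was not tested.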

How the results depend on the processing

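The calls of ITGA6, ITGB4 and CD151 between days 2 and 22 kept their direction and side of the threshold in 14 of 14 alternatives on each matrix. On LN323, limma on log2(TPM + 1) and on log2(TPM + 0.1) each called 5 receptor genes, ITGB1 and BCAM in addition. For LN523 against LN323 at day 32, a fit of only those groups called 2 (ITGA7 0.55, ITGB4 -0.64) and 1035 of all genes, against 0. Without replicate 2 in every group, 1 was called on LN521 between days 22 and 32 (ITGA7), and 2 uncalled differences turned, ITGA3 for LN523 against LN323 at day 2 to 0.015 and ITGA7 for LN523 against LN521 at day 22 to 0.070. Leaving out single replicates, 0 to 1 receptor genes were called for LN323 against LN521 at day 22 and 0 to 1 at day 32, the 1 being ITGA7 and ITGB4 without LN521 replicate 1. Single replicates also turned these log2 differences: ITGA3 for LN523 against LN323 at day 2 (-0.46 to 0.0036), ITGA7 (-0.016 to 0.50) and BCAM (-0.55 to 0.061) for LN523 against LN323 at day 22, ITGA7 (-0.54 to 0.046) and BCAM (-0.58 to 0.24) for LN523 against LN521 at day 22, and ITGB4 (-0.30 to 0.58) and BCAM (-0.43 to 0.12) for LN323 against LN521 at day 32. BCAM for LN523 against LN323 at day 22 also turned to 0.046 without LN323 replicate 3, and for LN523 against LN521 to 0.079 without LN523 replicate 1. The cause was not tested. Without the replicate block, 4, 3 and 3 receptor genes were called between days 2 and 22 and 0 elsewhere, so the block changed no such count in fits of all matrices. In those fits 1 set of lane terms is shared by the matrices, whereas same-lane deviations on LN521 did not follow those on LN523 and LN323. A fit of only LN523 and LN323 without the block was not made, so the effect of pairing those matrices is not known. Counts over all genes moved more, and filterByExpr called 0 genes in each matrix comparison. Over all alternatives, left-out replicates included, LN523 against LN323, LN523 against LN521 and LN323 against LN521 had 0 to 805, 0 to 890 and 0 to 3439 genes called at day 2 beside 90, 241 and 967, 0 to 547, 0 to 511 and 0 to 628 at day 22 beside 5, 221 and 238, and 0 to 1035, 0 to 1907 and 0 to 2143 at day 32 beside 0, 24 and 46. Between days 22 and 32 the counts were 0 to 769, 1 to 277 and 5 to 571 on LN523, LN323 and LN521 beside 171, 19 and 120, and for the interaction 0 to 1391 beside 27.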
